A study of Mus musculus with 4 samples.

Results

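The array hybridised with RNA of conditional Ring1A/B double knockout mouse embryonic stem (ES) cells at day 4 was compared with the array given as the control of that knockout. These were 2 of the 4 arrays of the series and were chosen by their titles. The double knockout was conditional and made with OHT, because constitutive double knockout cells could not be kept in culture. The control cells are labelled wild-type. Whether the control cells received OHT or carried the floxed alleles, and whether each line was 1 clone, is not given in the sources used here. The other 2 arrays held a constitutive Ring1B knockout and its own wild-type control, and they are used here only as a second reference. Each group was 1 array, so no difference below has a replicate check, none was tested, and all differences are between these arrays rather than between conditions.

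Ring1 (Ring1A) and Rnf2 (Ring1B) are the RING-finger subunits that give Polycomb repressive complex 1 (PRC1) its histone H2A ubiquitin ligase activity. PRC1 acts together with PRC2, which methylates histone H3 at lysine 27, and the pair is best known in ES cells for keeping developmental transcription factor genes off. A variant form of PRC1 built on Pcgf6 and containing E2f6, L3mbtl2, Mga and Max keeps many germline genes silent. The account below follows gene groups outside the developmental regulators: matrix, cytoskeleton, immunity, signalling, metabolism, germline RNA processing, chromatin and the core machinery of the cell.

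The values are scaled microarray signal intensities, in arbitrary units. A floor of 36.6, the 40th percentile of all signals, was set, and a fold against a value under the floor is given as "at least". Of 18193 named genes, 12353 exceeded the floor on 1 or both arrays of the pair. "Higher" and "lower" always mean the array labelled double KO relative to the array labelled its control, and a gene is counted as higher or lower at 2-fold or more.

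The targeted genes did not separate the 2 arrays. The only probe set of Ring1 read 44.7 for the control label and 55.6 for the double KO label, both close to the floor, against 146 and 164 on the Ring1B control and knockout arrays. The brightest probe set of Rnf2 read 2183 and 1986, a log2 difference of -0.14. A second bright probe set of Rnf2 read 1034 and 912, and the remaining probe sets of Rnf2 lay near or under the floor or differed by less than 0.5 on the log2 scale. A probe outside a deleted exon checks nothing, and the position of these probes relative to the deletion is not given in the sources used here, so the genotypes rest on the labels. Both arrays carried the ES cell marker set: 10 of 10 markers were above the floor, with summed signals of 47188 on the control and 63283 on the double KO. Pou5f1, the Oct4 gene, read 4304 and 7580.5. The RNA quality ratios were close, with 3′ to 5′ ratios of 1.21 and 1.26 for Actb and 0.852 and 0.847 for Gapdh. Before scaling, the 2%-trimmed mean signals were 160.0 and 147.0. In bulk RNA of this kind, fewer cells of a type and less RNA per cell cannot be told apart.

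Most genes lay close to the line of equality. Of the 12353 genes above the floor, 8821 (71.4%) differed by less than 1.5-fold, and the median log2 difference was -0.05. The genes at least 2-fold apart leaned to one side: 373 (3.02%) were higher and 1234 (9.99%) were lower. These shares are the background for every group count below. For 64 of the higher and 313 of the lower genes the fold is a bound. The lean to lower signals was larger among dim and mid-range genes and was also present in the brightest class. Where the brighter array was under 4 times the floor, 12.0% of genes were lower and 2.3% higher. Between 4 and 16 times the floor the shares were 14.3% and 4.14%. Above 16 times the floor they were 4.87% and 2.59%, and the median there was 0.06.

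**Figure D1:**
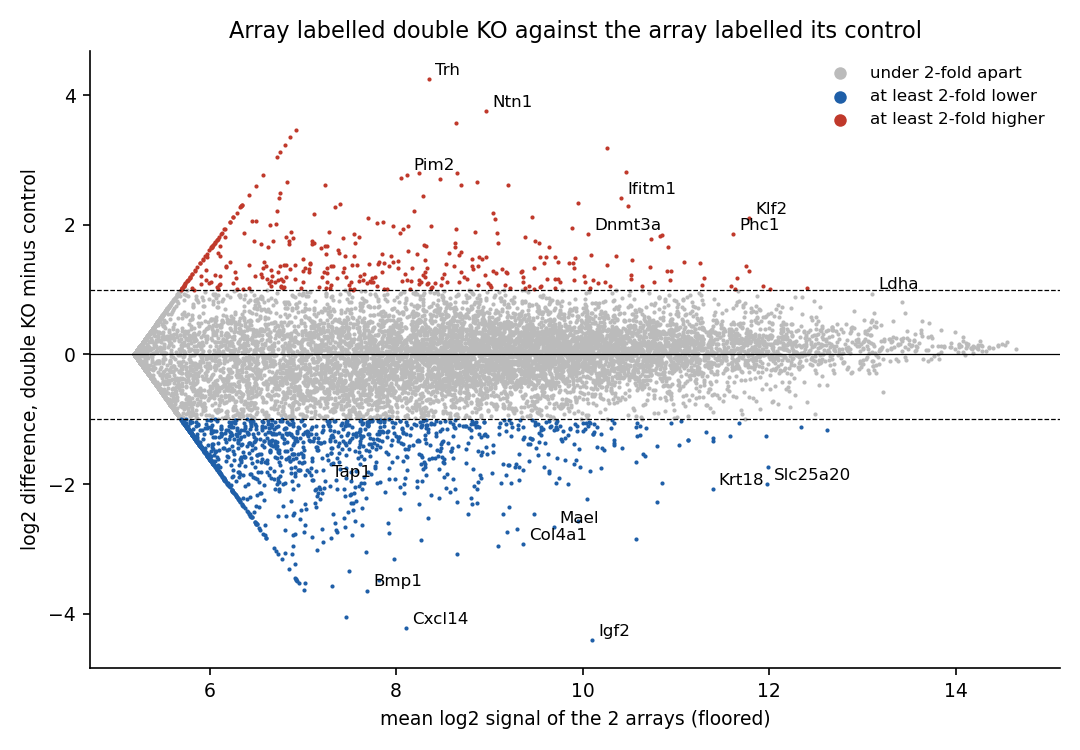
Each point is a gene above the floor on 1 or both arrays of the pair, plotted by its mean log2 signal (x) and its log2 difference, double KO minus control (y), with dashed lines at 2-fold. The 1234 lower genes (blue) outnumber the 373 higher ones (red), and the straight edges on the left are genes at the floor on 1 array.

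A second probe set for the same gene gave a check within each array. Of the 144 higher genes with another probe set above the floor, 128 had that probe set higher too, and 63 of the 144 (43.8%) had it at least 2-fold higher. None of the 144 had it 2-fold lower. Of the 516 lower genes, 491 had the next probe set lower and 262 of the 516 (50.8%) had it at least 2-fold lower, with 1 at least 2-fold higher. Over all 5802 genes with such a probe set, 2.55% and 7.1% were 2-fold higher and lower on it. Probe sets of 1 gene share the RNA sample and the array, so this check covers the probes and not the cells. Among the genes described here, 90 that were at least 2-fold apart had another probe set above the floor. It was at least 2-fold apart the same way for 60, under 2-fold the same way for 26 and the opposite way for 4, which were Fosl2, Napsa, Sdc3 and Sdc4.

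**Figure D2:**
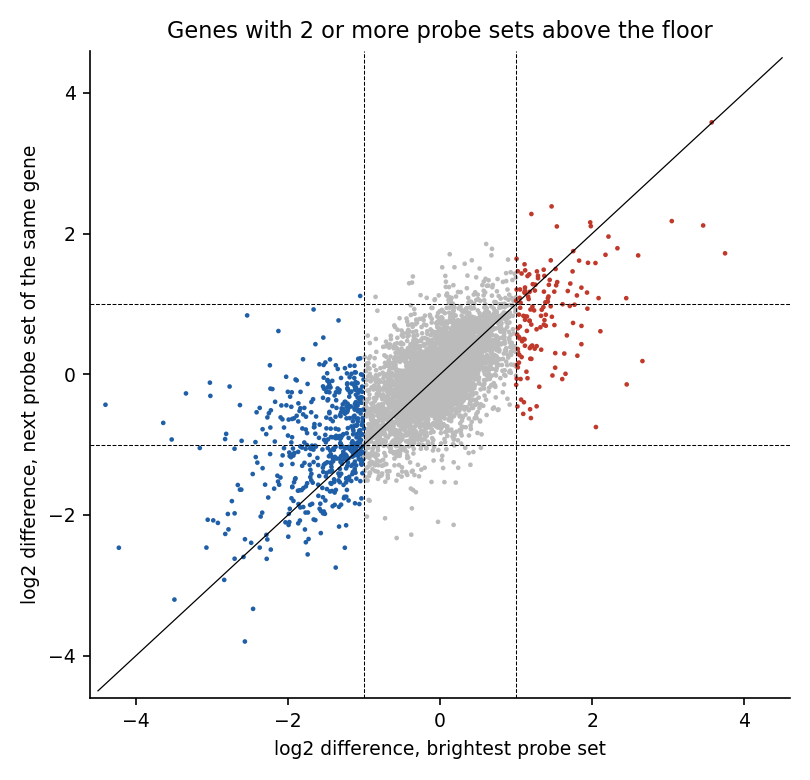
Log2 difference (double KO minus control) of each gene's brightest probe set (x) and its next probe set (y), for the 5802 genes with another probe set above the floor. Points of genes called on the brightest probe set (blue lower, red higher) mostly keep their side but lie nearer to 0 on the next probe set, with medians of -1.02 and 0.92 there.

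The Ring1B control array, also of cells labelled wild-type, gave a second reference for the double KO array. Of 178 genes described here that were at least 2-fold apart within the pair, 44 had the opposite sign against that array. Over probe sets, its log2 signals correlated with those of the double KO at 0.953, against 0.973 for the paired control. The 2 wild-type arrays thus differed from each other at many of the genes below. The level or difference on the Ring1B control array is given beside the main groups whose direction it turns. It is also given beside some of the largest folds.

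Among the lower genes with the largest folds, several code for actin-binding, secreted or metabolic proteins. Gsn encodes gelsolin, which severs actin filaments, and its signal was 1170.4 and 139 on control and double KO, 8.42-fold lower. The Ring1B control array read 1168 for Gsn, the same level as the paired control, so Gsn was low on the double KO array against either reference. Eps8l2, an actin regulator of the Eps8 family, read 1515 and 195, 7.76-fold lower, but the Ring1B control array read only 216. Tinagl1, a secreted basement membrane protein, read 754 and 84.5 and was 8.92-fold lower. Hspa1b, the inducible Hsp70 chaperone, read 323 and 38.9, 8.32-fold lower. Bhmt, which remakes methionine from homocysteine with betaine, read 343 and 40.5, 8.47-fold lower, while the Ring1B control array lay just above the floor for Bhmt with 36.8. Rbp4, the plasma carrier of retinol, read 332 and 42.8, 7.75-fold lower. The cytosolic retinoid carrier Crabp1 was also lower, at 960.4 and 207, 4.64-fold. Among genes under the floor on the double KO array, Smpdl3a, a relative of acid sphingomyelinase, was at least 8.42-fold lower from a control signal of 308, and the prostaglandin transporter Slco2a1 was at least 8.16-fold lower from 298, with -0.12 on its next probe set. These genes differed by the second reference. Gsn and Hspa1b were also high on the Ring1B control array, whereas Eps8l2 and Bhmt were high on the paired control array alone. The Ring1B control array read 128 for Tinagl1, 95.6 for Rbp4, 63.2 for Smpdl3a and 87.4 for Slco2a1, well below the paired control. Against it their log2 differences were -0.60, -1.16, -0.79 and -1.26.

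**Figure D3:**
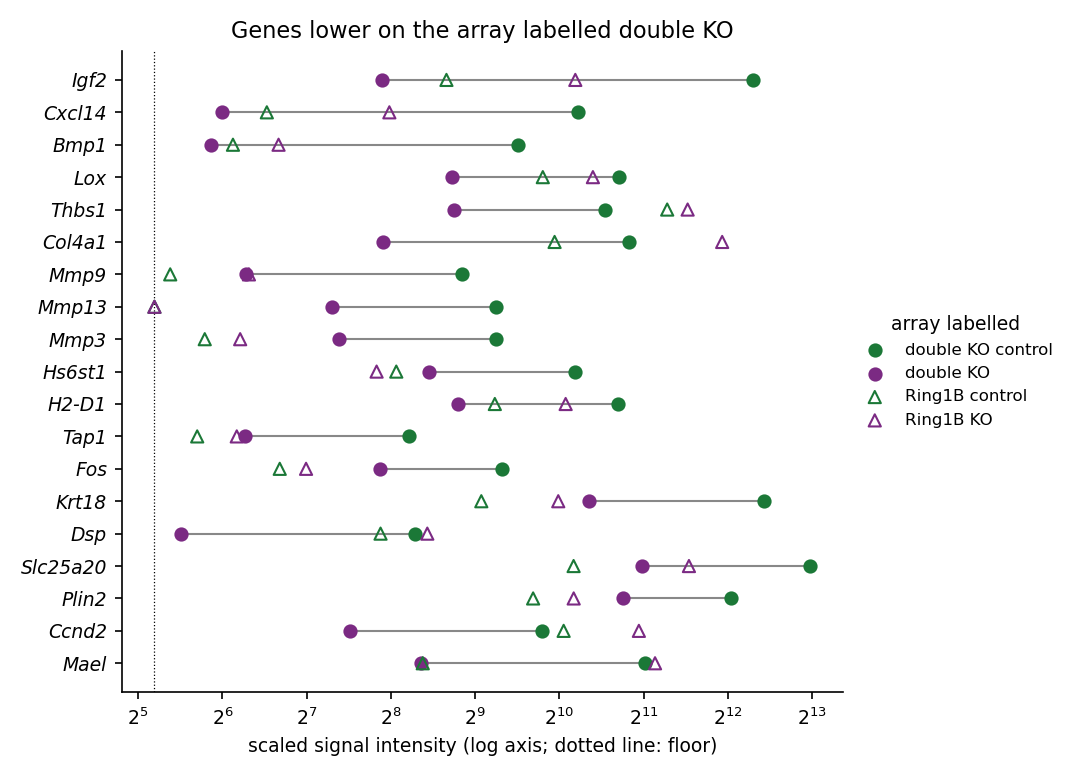
Scaled signals of lower genes from several groups on the 4 arrays (log axis), filled circles for the double KO pair joined by a line and open triangles for the Ring1B pair. All 19 genes lie to the left on the array labelled double KO relative to its paired control. For Mmp3, Mmp13, Mmp9, Krt18, Fos, Plin2, Slc25a20, Tap1 and Hs6st1 the Ring1B control array lies further left still.

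Genes of the extracellular matrix were lower in large part. Of 42 collagen genes on the array, 27 were above the floor, 15 were lower and 0 higher, with a median log2 difference of -1.27 against -0.05 over all genes. Col4a1 and Col4a2 encode the type IV chains of basement membranes and lie head to head on chromosome 8. Col4a1 read 1815 and 239, 7.58-fold lower. Col4a2 read 827 and 114, 7.26-fold lower. Both were above 400 on the Ring1B control array, at 984 and 449, so the pair was low on the double KO array against both references. The fibrillar collagen gene Col5a1 read 587 and 151, 3.88-fold lower (-0.46 on the next probe set), and Col6a2, a chain of beaded filaments, was at least 5.39-fold lower. With the Ring1B control array as reference 16 of 28 collagen genes were lower and 2 higher, and the median was again -1.27. Col18a1, another basement membrane collagen, did not share this: it read 2606 and 3343, a log2 difference of 0.36.

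Of 15 genes of collagen processing above the floor, 5 were lower and 0 higher, and most stayed under 2-fold, with a median of -0.48. Serpinh1, the collagen chaperone Hsp47 of the endoplasmic reticulum, read 1837 and 462, 3.98-fold lower. P4ha2, a prolyl 4-hydroxylase subunit, read 412 and 163, 2.53-fold lower. Bmp1, which cleaves the carboxyl propeptide of procollagen, read 727 and 58.3, 12.5-fold lower, though its next probe set differed by only -0.69 on the log2 scale. Against the Ring1B control array, which read 69.8, Bmp1 differed by -0.26. Lox, the lysyl oxidase that crosslinks collagen and elastin, read 1672 and 425, 3.94-fold lower, and its relative Loxl1 read 478 and 160.1, 2.99-fold lower. Folding, hydroxylation, cleavage and crosslinking were thus each represented among the lower genes.

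The list of TGF-beta family ligands, their latency proteins and matrix genes that respond to them had 16 of 25 members lower and 0 higher, with a median of -1.44. Thbs2, a matricellular thrombospondin, read 309 and 63.4, 4.88-fold lower, and its relative Thbs1 read 1492 and 429, 3.48-fold lower. Tgfbi, a secreted adhesion protein named for its induction by TGF-beta, read 290.5 and 54.9, 5.29-fold lower. Inhba encodes the activin A subunit, a ligand of the family, and read 438 and 94.8, 4.62-fold lower. Ltbp4, which anchors latent TGF-beta in the matrix, was on the other side at 1797 and 2237, under 2-fold. Against the Ring1B control array the median of the list was -0.78, in the same direction.

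Proteoglycans and the enzymes that sulfate their chains were lower as well. Of 27 proteoglycan and elastic fibre genes above the floor, 11 were lower and 0 higher. The transmembrane heparan sulfate proteoglycans Sdc3 and Sdc4 were 5.81-fold and 4.37-fold lower, with signals of 302 and 52 for Sdc3 and 796 and 182 for Sdc4. The next probe set of each was brighter on the double KO, by 0.84 for Sdc3 and 0.62 for Sdc4 on the log2 scale, so the 2 probe sets of these genes went opposite ways. Without probe sets that can read several transcripts, the log2 difference of Sdc4 turned to 0.61. Fbln2, an elastic fibre component, read 762 and 182, 4.19-fold lower. Of 17 carbohydrate and heparan sulfotransferases, 9 were lower and 0 higher. Hs6st1, which adds 6-O-sulfate to heparan sulfate, was the brightest of the named ones at 1160.4 and 349.6, 3.32-fold lower. Chst15, a chondroitin sulfotransferase, was at least 6.11-fold lower from a control signal of 224. Of the glypicans, Gpc4 read 269 and 410.5, a log2 difference of 0.61 with -0.58 on its next probe set, and Gpc3 read 131 and 182, both under 2-fold.

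Markers of fibroblasts and of endoderm were lower in the same comparison. Of 16 fibroblast markers above the floor, 12 were lower, with summed signals of 11093 on the control, 8820.0 on the double KO and 17558 on the Ring1B control. Of the 17 listed, 14 also stand in the other gene lists described here, so the counts are not separate. Of 10 primitive and parietal endoderm markers, 6 were lower and 1 higher, with sums of 12937 and 5916. Lama1, a laminin chain made by parietal endoderm, was the higher one, at 203 and 513. The part of these cell types in the lower matrix signals was not tested.

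The matrix metalloproteinases, secreted or membrane-bound enzymes that cut matrix proteins, had 7 of 11 genes lower and 0 higher. Mmp9, a gelatinase, read 459.6 and 77.5, 5.93-fold lower. Mmp14, the membrane-type enzyme, read 832 and 245, 3.4-fold lower. The stromelysin genes Mmp3 and Mmp10 and the collagenase gene Mmp13 are neighbours on chromosome 9 and were lower together. Mmp13 read 609.5 and 158, Mmp3 read 608 and 168, and Mmp10 read 344 and 147. Of their inhibitors, Timp3 read 286 and 43.9, 6.51-fold lower, and Timp2 read 1105 and 303, 3.65-fold lower, while Timp1 read 1348 and 1088, under 2-fold. The direction for this family depended on the reference. The Ring1B control array read 17.2 for Mmp13, 55.4 for Mmp3 and 41.7 for Mmp9, below the double KO, and against it the median of the family was 0.54 in place of -1.15.

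The promoters of the chromosome 9 trio are shown because the 3 genes were lower together and share a motif. The 250 bases before the annotated start were taken from RefSeq (mouse build GRCm38.p6) and read 5′ to 3′ on the strand of the gene, here the plus strand for all 3. They lie at chr9:7445572-7445821 for Mmp3, chr9:7272264-7272513 for Mmp13 and chr9:7502092-7502341 for Mmp10. Capitals mark matches to TGANTCA, the motif of AP-1, the dimer of Fos and Jun proteins. The motif reads the same on both strands. It was chosen after the signals had been seen.
Mmp3: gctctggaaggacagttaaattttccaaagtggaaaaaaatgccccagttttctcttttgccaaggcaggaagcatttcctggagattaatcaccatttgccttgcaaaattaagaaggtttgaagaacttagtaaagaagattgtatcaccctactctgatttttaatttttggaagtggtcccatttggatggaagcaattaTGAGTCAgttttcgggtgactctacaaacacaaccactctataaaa
Mmp13: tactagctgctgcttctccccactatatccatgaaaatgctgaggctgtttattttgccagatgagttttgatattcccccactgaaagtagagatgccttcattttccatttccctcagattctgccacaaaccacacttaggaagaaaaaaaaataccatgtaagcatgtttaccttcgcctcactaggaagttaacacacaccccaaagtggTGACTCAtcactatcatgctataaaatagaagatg
Mmp10: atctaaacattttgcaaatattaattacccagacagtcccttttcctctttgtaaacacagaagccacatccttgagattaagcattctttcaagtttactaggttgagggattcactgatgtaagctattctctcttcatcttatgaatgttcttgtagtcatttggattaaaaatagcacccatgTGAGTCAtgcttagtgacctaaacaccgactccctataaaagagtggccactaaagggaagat
The match begins 46 bases before the start in Mmp3, 35 in Mmp13 and 63 in Mmp10. In the window of 300 bases reaching 50 bases past the start, the motif stood in 3 of the 7 metalloproteinase promoters available (42.9%) and in 479 of the 9987 promoters of all genes tested (4.8%). Among promoters of lower genes it stood in 54 of 962 (5.61%). A match describes letters and is no evidence of binding.

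Genes of the AP-1 dimer and of the other immediate early genes, which cells switch on within minutes of a stimulus, were lower in part. Of 18 above the floor, 9 were lower and 0 higher. Fos read 638 and 234, 2.72-fold lower, and Jun read 579 and 222, 2.61-fold lower. Zfp36, whose product destabilises AU-rich messenger RNAs, read 764 and 240.4, 3.18-fold lower. Fosl1 and Fosl2, further AP-1 subunits, were under the floor on the double KO, at least 2.79-fold and at least 2.8-fold lower from control signals of 102 and 102, while their next probe sets gave -0.19 and 0.02. Not all of the class followed. Egr1, an early zinc finger factor, read 453 and 812, and Ier2 read 1971 and 2679.8, both brighter on the double KO but under 2-fold. On the Ring1B control array Fos read 103, below both arrays of the pair.

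Actin and contractile genes were lower in 10 of 25 members and higher in 0, with a median of -0.60. Flnc, an actin-crosslinking filamin, read 249 and 49.2, 5.06-fold lower. Zyx, the focal adhesion protein zyxin, read 701 and 156, 4.5-fold lower, with -0.39 on its next probe set. Acta2, smooth muscle actin, read 1502 and 420.3, 3.57-fold lower, and Myl9, a regulatory myosin light chain, read 824 and 280.4, 2.94-fold lower. Of 22 promoters of this list, 5 (22.7%) held a CArG box, the motif of serum response factor, against 1.28% of all promoters. The 5 were those of Acta1, Cnn2, Myl9, Myl7 and Vcl. Among promoters of all lower genes the box stood in 16 of 962 (1.66%). The list was chosen with earlier results of these data known, and a match is no evidence of binding. Smooth muscle markers, among which Acta2 and Myl9 are counted, were lower in 3 of 6, with summed signals of 4227 and 1839, and Lmod1 was at the floor on both arrays. Their part in the lower contractile signals was not tested.

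Among targets of Yap and Tead, the transcription factors of the Hippo pathway, 6 of 19 (31.6%) were lower and 0 higher. Over all genes 9.99% were lower and 3.02% higher. Ccn1, a secreted matricellular protein and a classic target, read 2412 and 407, 5.93-fold lower. Amotl1, an angiomotin that binds Yap, read 887 and 312, 2.85-fold lower, and its relative Amot read 391 and 98.8, 3.96-fold lower. Integrins, the matrix receptors, were lower in 5 of 18 (27.8%) and higher in 2 (11.1%). Itga3, a laminin receptor chain, read 398 and 151, 2.63-fold lower, and Itgb5 read 1214 and 581, 2.09-fold lower. Itgb7, a leukocyte integrin chain, was higher at 86.9 and 188. Integrin genes thus differed in direction among themselves within the pair. Against the Ring1B control array Itgb5 and Itgb7 changed sign, with log2 differences of 0.26 and -0.29.

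Epithelial genes were split between lower keratins of simple epithelia and junction genes that mostly stayed under 2-fold. Krt8 and Krt18, the partner keratins of simple epithelia, were lower by 4.68-fold and 4.22-fold, with signals of 2293 and 489.9 for Krt8 and 5523 and 1309 for Krt18. Krt19 read 603 and 115, 5.24-fold lower, and Krt7 read 652 and 205, 3.18-fold lower. In all, 4 of 13 keratin genes (30.8%) were lower and 1 (7.69%) higher, the latter being Krt42 at 525 and 1171. Dsp, the desmosomal plaque protein desmoplakin, read 313 and 45.5, 6.89-fold lower. Of 13 desmosome and hemidesmosome genes, 4 were lower. Of 20 tight and adherens junction genes, 2 were lower and 1 higher. With the Ring1B control array in place of the paired control, list medians changed sign, from -0.50 to 0.39 for the tight and adherens junction genes, from -0.86 to 0.13 for the desmosome and hemidesmosome genes and from -0.18 to 0.16 for the keratins. Cldn3, a claudin, read 819 and 306, 2.68-fold lower. Nectin3, an adhesion protein of adherens junctions, read 221 and 473, 2.14-fold higher.

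Trophoblast markers, which include Krt7, Krt8 and Krt18, were lower in 6 of 8, with summed signals of 9795 and 2505. Elf5 and Plac1 were at the floor on both arrays. Gata3, a transcription factor of that lineage, read 370.5 and 39.2, 9.45-fold lower. The part of trophoblast cells in the lower keratin signals was not tested. The Ring1B control array read 539 for Krt18, below the double KO. Against that array the log2 differences were 1.48 for Krt7, 0.17 for Krt8 and 0.45 for Krt19, and the trophoblast median was 0.10 in place of -1.87.

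Annexins and S100 proteins, calcium-binding partners at the plasma membrane, were lower in 3 of 9 (33.3%) and 3 of 7 (42.9%). Over all genes 9.99% were lower. Anxa3 read 1332 and 241, 5.53-fold lower. Anxa1 read 1473 and 488, 3.02-fold lower. The 3 S100 genes that neighbour each other on chromosome 3 were lower together, with S100a6 at 2084 and 804, S100a4 at 286 and 108 and S100a16 at 203 and 69.6. S100a13 went the other way at 138 and 503, 3.65-fold higher. Of 16 tetraspanins, membrane organisers, 7 (43.8%) were lower and 0 higher.

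**Figure D4:**
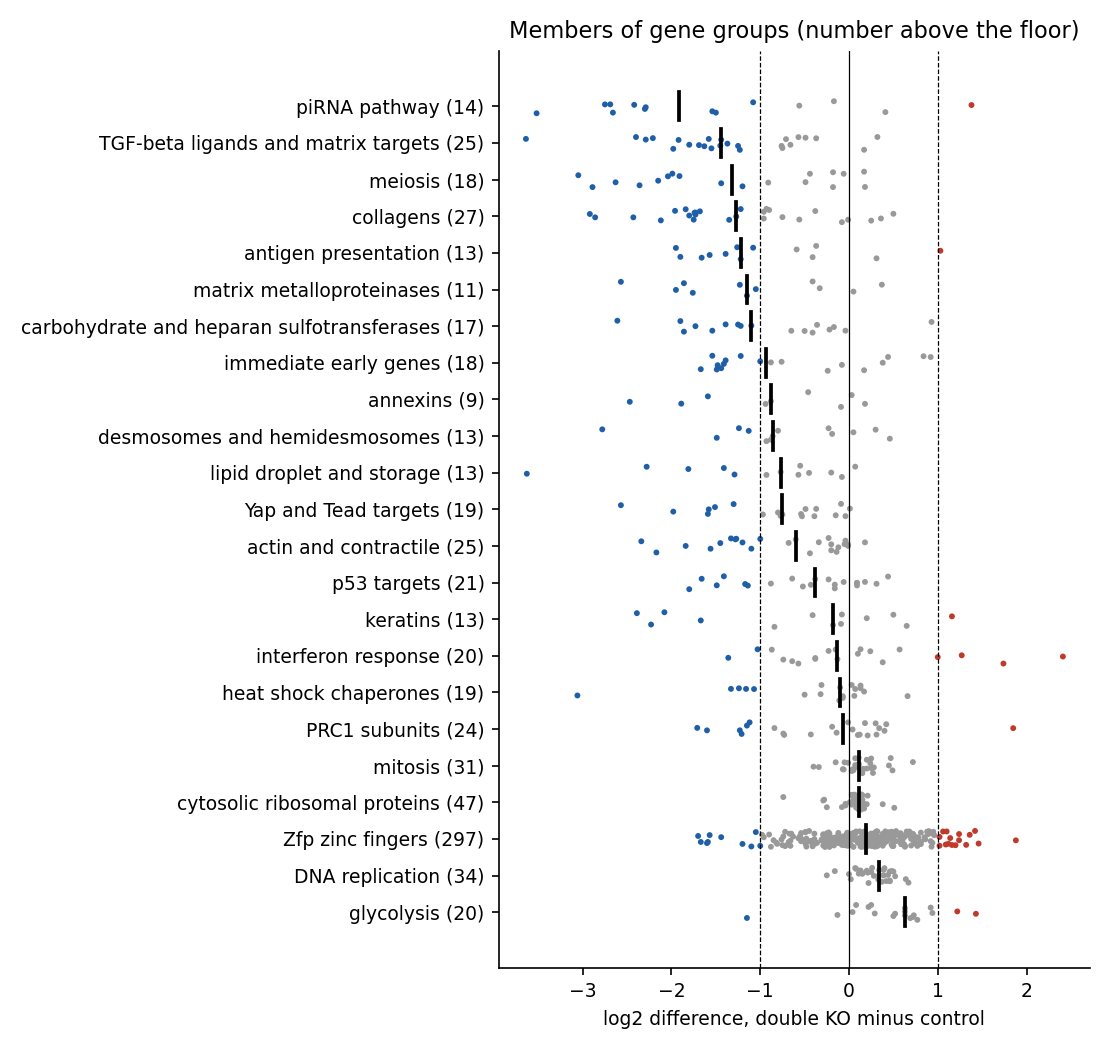
Log2 differences (double KO minus control) of the members above the floor of 23 gene groups, 1 point a gene, with the number of members in brackets, a black bar at the group median and dashed lines at 2-fold. Matrix, germline and antigen presentation groups sit to the left, and DNA replication and glycolysis have medians of 0.34 and 0.63.

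The genes of class I antigen presentation were lower as a chain. Psmb9, the immunoproteasome subunit, read 298 and 94.3, 3.17-fold lower. Tap1, the peptide transporter, read 298 and 76.9, 3.87-fold lower, with -0.26 on its next probe set, and the loading factor Tapbp read 2368 and 990.0, 2.39-fold lower. The class I heavy chains H2-K1 and H2-D1 read 2809.6 and 947 for H2-K1 and 1664 and 445 for H2-D1, 2.97-fold and 3.74-fold lower. B2m, the light chain, read 2089 and 795, 2.63-fold lower. In all, 8 of 13 members were lower and 1 was higher, Psmb10, another immunoproteasome subunit, at 233 and 475. Genes of the class I family are near-identical to each other, so probes may read more than 1 of them. Against the Ring1B control array the median of the list was 0.05 in place of -1.22, and Tapbp read 329 there.

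Of 20 interferon response genes, 4 (20%) were higher and 2 (10%) lower, against 3.02% and 9.99% over all genes, so the lower share was close to the background. Their median was -0.14. Against the Ring1B control array it was 0.62 for these 20 genes, and 0.88 over the 15 list members above the floor in that comparison. Ifitm1, a membrane protein that restricts viral entry and is well expressed in ES cells, read 589.8 and 3136, 5.32-fold higher. Its relative Ifitm3 read 2247 and 4499.5. Both were brighter still on the Ring1B control array, at 5016 for Ifitm1 and 7282 for Ifitm3. Ddx58, the cytosolic RNA sensor RIG-I, read 393 and 1314, 3.35-fold higher, and Gbp2, a guanylate-binding GTPase, read 86 and 208, 2.42-fold higher. Ifit1 and Ifit3, which bind foreign RNA, were the lower ones, at least 2.04-fold and at least 2.57-fold from dim control signals of 74.8 and 94.

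Chemokine and NF-kB target genes were lower where they differed, in a comparison where 9.99% of all genes were lower and 3.02% higher. Of 17 chemokine and receptor genes, 4 (23.5%) were lower and 0 higher. Ccl2, which draws monocytes, read 1016 and 314, 3.24-fold lower, and its relative Ccl7 read 388 and 110.3, 3.52-fold lower. Cxcl14 had one of the largest folds of all genes, at 1192 and 63.7. The Ring1B control array read 92.3 for Cxcl14, and the log2 difference against that array was -0.53. Of 18 NF-kB pathway and target genes, 5 (27.8%) were lower, among them Birc3, an inhibitor of apoptosis, at 318 and 118. Of 25 interleukin and receptor genes, 8 were lower and 1 higher. Il17rd, better known as the growth factor antagonist Sef, was the higher one at 280.5 and 644, 2.3-fold. Ptprc, the pan-leukocyte marker, was at the floor on both arrays. Against the Ring1B control array the NF-kB median was 0.39 in place of -0.50, and Ccl2 differed by 0.39 on the log2 scale.

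Among metabolic genes, glycolysis leaned to brighter signals and fatty acid storage and oxidation to dimmer ones within the pair. Glycolysis genes were brighter on the double KO in 18 of 20 members, with a median of 0.63, though 2 were 2-fold higher and 1 lower. Pdk1, the kinase that shuts pyruvate dehydrogenase, read 1325 and 3573, 2.7-fold higher. Ldha, lactate dehydrogenase, was very bright at 6372 and 12217, a log2 difference of 0.94. Aldoc, an aldolase isoform, read 324 and 757, 2.34-fold higher. Hk1, a hexokinase at the entry of the pathway, was the lower one at 943 and 426, 2.21-fold. Relative to the Ring1B control 17 of 20 were brighter on the double KO, with a median of 0.36 and none at 2-fold. The hypoxia target list, which shares Pdk1 and Lox, was mixed. Of 18 genes, 1 (5.56%) was higher and 3 (16.7%) were lower, against 3.02% and 9.99% over all genes.

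Genes for storing and burning fatty acids were lower where they differed. Of 13 lipid droplet genes, 5 (38.5%) were lower and 0 higher, against 9.99% and 3.02% over all genes. Fabp5, a fatty acid carrier, read 3924 and 807, 4.86-fold lower. Plin2, the coat protein of lipid droplets, read 4198 and 1722, 2.44-fold lower. Slc25a20, which carries acylcarnitine into mitochondria, was among the brightest lower genes at 8066 and 2021, 3.99-fold. Acaa2, the thiolase of beta-oxidation, read 1874 and 696, 2.69-fold lower, and Acadvl, the dehydrogenase for very long chains, read 1067 and 507, 2.1-fold lower. The rest of the fatty acid oxidation list stayed under 2-fold, and 3 of 19 (15.8%) were lower in all. The median of that list was -0.28 and turned to 0.13 against the Ring1B control array. The Ring1B control array read 1151 for Slc25a20 and 825 for Plin2, below the double KO. These 2 genes were thus lower against the paired control alone. The same held for Acaa2, with a log2 difference of 0.68 against the Ring1B control array. The lipid droplet median was 0.03 there in place of -0.77. Genes that make lipids did not lean within the pair. Of 17 fatty acid synthesis genes, 1 (5.88%) was lower and 0 higher, with a median of 0.04. Sterol synthesis genes had a median of 0.02, with 0 higher and 0 lower of 20.

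Enzymes that run glycolysis backwards or handle glycogen were lower in 3 of 9. Fbp1, fructose-1,6-bisphosphatase, read 170.3 and 46, 3.7-fold lower, and its muscle form Fbp2 was at least 11.1-fold lower. Pygl, glycogen phosphorylase, read 245 and 57.9, 4.23-fold lower. Glutathione genes were mixed. Gpx8 and Gpx3, glutathione peroxidases, read 572 and 129.7 for Gpx8 and 646 and 231 for Gpx3, both lower. Gpx2, of the same family, read 584 and 1552, 2.66-fold higher. Of 238 solute carrier genes, 11 (4.62%) were higher and 24 (10.1%) lower, shares close to those of all genes. Slc7a3, a carrier of arginine and lysine, read 1085 and 3419, 3.15-fold higher, and Slc23a1, a vitamin C transporter, read 66 and 295, 4.47-fold higher.

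Some regulators of growth and the cell cycle differed without a matching difference in the mitotic genes. Igf2, the fetal growth factor, had the largest fold of all at 5049.9 and 239, but its next probe set gave a log2 difference of -0.43. The Ring1B control array read 404 for Igf2, and the log2 difference against that array was -0.76. The receptor gene Igf1r read 484 and 219, 2.21-fold lower. Igfbp7, a secreted binding protein, read 958 and 228, 4.21-fold lower, and Igfbp2 read 4470.3 and 6031, under 2-fold. The cyclin-dependent kinase inhibitors Cdkn1c and Cdkn1a read 1513 and 226 for Cdkn1c and 1549 and 701 for Cdkn1a, 6.69-fold and 2.21-fold lower. Ccnd2, a D-type cyclin, read 885 and 183, 4.83-fold lower, while Ccnd1 read 807 and 1214, brighter and under 2-fold. Of 21 p53 targets, 6 (28.6%) were lower and 0 higher. Pmaip1, the apoptosis trigger Noxa, read 2021 and 579.7, 3.49-fold lower, and Btg2, an antiproliferative factor, read 459 and 172, 2.66-fold lower. Heat shock chaperones were lower in 5 of 19 (26.3%) and higher in 0. The list as a whole differed little, with a median of -0.10 and summed signals of 81881 and 83338. Hspb8, a small chaperone, read 667 and 298 and its partner Bag3 read 224 and 107. Mitotic genes had 0 higher and 0 lower of 31.

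Imprinted genes, expressed from 1 parental copy, differed in both directions: 3 of 28 (10.7%) were higher and 7 (25.0%) lower. Over all genes the shares were 3.02% and 9.99%. Igf2 and Cdkn1c lie in 1 imprinted region and were both lower. Peg3, a zinc finger gene expressed from the paternal copy, read 642 and 1861, 2.9-fold higher. Impact, a translation regulator, read 709 and 1537, 2.17-fold higher. Ndn, the necdin gene, read 441 and 139, 3.17-fold lower. The list as a whole had a median of -0.16.

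Germline genes of the piRNA pathway, which silences transposons in the testis, were lower in 10 of 14 and higher in 1, with a median of -1.91. Mael, a factor of nuage granules, read 2076 and 327, 6.34-fold lower. Mov10l1, the helicase that starts piRNA processing, read 628 and 93.5, 6.72-fold lower. Tdrd7, a Tudor-domain protein, read 375 and 58.1, 6.46-fold lower, and Ddx4, the Vasa helicase, read 1034 and 212, 4.88-fold lower. Tdrd12, another Tudor-domain protein, was the exception at 761 and 1984, 2.61-fold higher. Meiosis genes were lower in 10 of 18 and higher in 0. Syce1, of the synaptonemal complex, read 1346 and 262, 5.13-fold lower, and Stra8, the gatekeeper of meiotic entry, read 494 and 80.1, 6.17-fold lower. The levels on the other pair placed the arrays in order: Mael read 333 on the Ring1B control and 2248 on the Ring1B knockout, so the array labelled double KO sat with the Ring1B control array. Measured from the Ring1B control array the medians were -0.02 for the piRNA list and -0.22 for meiosis. The germ cell marker list, which shares these genes, was lower in 7 of 8, with summed signals of 6192 and 1333, and its part in the result was not tested.

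The promoters of 3 of these germline genes are shown because they carry the E-box CACGTG, the site of Max dimers, among them the Mga and Max pair of the Pcgf6 form of PRC1. The 250 bases before the start were again taken from RefSeq (GRCm38.p6), 5′ to 3′ on the strand of the gene: chr1:166238745-166238994 (minus strand) for Mael, chr13:112652311-112652560 (minus strand) for Ddx4 and chr6:49395289-49395538 (plus strand) for Stk31, a Tudor-domain kinase gene that read 517 and 178. Capitals mark the motif, which reads the same on both strands and was chosen after the signals had been seen.
Mael: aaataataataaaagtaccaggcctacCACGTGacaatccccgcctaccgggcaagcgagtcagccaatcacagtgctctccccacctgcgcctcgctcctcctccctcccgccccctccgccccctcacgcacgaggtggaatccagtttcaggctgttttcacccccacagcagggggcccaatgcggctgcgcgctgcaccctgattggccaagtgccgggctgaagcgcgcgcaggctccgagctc
Ddx4: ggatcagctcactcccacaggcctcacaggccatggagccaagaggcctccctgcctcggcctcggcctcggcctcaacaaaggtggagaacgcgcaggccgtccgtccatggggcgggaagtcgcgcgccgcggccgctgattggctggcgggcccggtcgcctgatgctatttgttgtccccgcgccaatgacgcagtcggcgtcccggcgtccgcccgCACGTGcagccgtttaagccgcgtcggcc
Stk31: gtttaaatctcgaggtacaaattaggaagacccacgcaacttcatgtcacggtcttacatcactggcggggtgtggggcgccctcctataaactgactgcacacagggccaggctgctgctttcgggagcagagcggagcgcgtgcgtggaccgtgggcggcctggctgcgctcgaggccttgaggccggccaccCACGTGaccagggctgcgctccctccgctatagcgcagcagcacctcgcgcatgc
The match begins 223 bases before the start in Mael, 29 in Ddx4 and 55 in Stk31. In windows of 300 bases, 5 of 13 piRNA promoters (38.5%) and 4 of 16 meiosis promoters (25.0%) held it, against 1061 of 9987 (10.6%) over all genes tested. Among all lower genes it stood in 92 of 962 promoters (9.56%), so the lower genes as a whole did not hold it more often than the rest.

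Of 24 PRC1 genes above the floor, 1 (4.17%) was higher and 6 (25.0%) were lower, against 3.02% and 9.99% over all genes. Their median was -0.07, and 0.22 against the Ring1B control array. Phc1, a Polyhomeotic subunit that is bright in ES cells, read 1648 and 5955, 3.61-fold higher, while its relative Phc2 read 1062 and 324, 3.27-fold lower. Bmi1 (Pcgf4), a partner of Ring1B in canonical PRC1, read 595 and 196, 3.03-fold lower. Cbx2, a chromodomain subunit that reads the H3K27 mark, read 525 and 227, 2.31-fold lower, while Cbx7, the chromodomain subunit prominent in ES cells, read 1079.8 and 1422. The variant-complex genes Bcor, Yaf2 and E2f6 were lower by 2.34-fold, 2.22-fold and 2.18-fold, with signals of 756 and 322 for Bcor, 558 and 251 for Yaf2 and 968 and 444 for E2f6, the next probe set of E2f6 giving -0.17. Of 13 PRC2 genes, 0 were lower and 1 was higher. The higher one was Phf19, an accessory protein of the Polycomb-like type, at 63.9 and 222, 3.48-fold. The core gene Eed read 3836 and 5402, under 2-fold. Relative to the Ring1B control array Bcor, Bmi1, E2f6 and Cbx2 were brighter on the double KO, by 0.94, 0.22, 0.12 and 0.11 on the log2 scale, while Phc2 was again dimmer, at -0.21.

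Among DNA methylation genes, Dnmt3a, a de novo methyltransferase, read 559 and 2029.8, 3.63-fold higher. Uhrf1, which guides maintenance methylation, read 1737 and 3047, and Tet2, which oxidises methylcytosine, read 345 and 631, both brighter and under 2-fold. Mbd2, a reader of methylated DNA, read 396 and 179.9, 2.2-fold lower. Of the 14 genes above the floor in this list, no others reached 2-fold.

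Several signalling and transcription factor genes were higher. ES cell markers as a list had 1 of 10 higher and 0 lower, with a median of 0.66, and of 0.01 against the Ring1B control array. Socs2, a feedback inhibitor of cytokine signalling, read 966 and 3432, 3.55-fold higher. Lifr, the receptor for leukaemia inhibitory factor, read 128 and 297, 2.32-fold higher, but 977 on the Ring1B control array, above both. Pim2, a survival kinase, read 106 and 724, 6.84-fold higher. The Jak, Stat and Pim list as a whole had 3 of 24 (12.5%) higher and 2 (8.33%) lower, against 3.02% and 9.99% over all genes. The lower ones were Jak2 at 214 and 85.2 and Stat5a at 243 and 107, a kinase and a transcription factor of the same pathway. Klf2, a pluripotency factor, read 1706 and 7318, 4.29-fold higher. Nr0b1, the orphan receptor Dax1 of ES cells, read 649 and 3167, 4.88-fold higher. Myb, a transcription factor of progenitor cells, read 134 and 733, 5.46-fold higher. Against the Ring1B control array the log2 difference was 0.35 for Nr0b1, under 2-fold, and 1.49 for Myb and 1.63 for Pim2. Gli1, which reports Hedgehog activity, read 141 and 554, 3.93-fold higher, and Ptch1, the Hedgehog receptor and a target too, read 589.6 and 1079, under 2-fold.

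Several genes for secreted and surface proteins were higher. Ntn1, the guidance cue netrin-1, read 137 and 1837, 13.4-fold higher. Pdgfc and Vegfb, ligands of the platelet-derived and vascular growth factor families, read 282 and 798 for Pdgfc and 143 and 381 for Vegfb, 2.83-fold and 2.67-fold higher. Tek, the receptor of angiopoietins, read 60.8 and 225, 3.71-fold higher, and Pecam1, an adhesion molecule of endothelium that ES cells also carry, read 139 and 905, 6.51-fold higher. Kdr and Cdh5, which define endothelium, were at the floor on both arrays, as were the embryonic globins. Pla2g1b, a secreted phospholipase, read 239 and 1455, 6.09-fold higher. Pipox, a peroxisomal oxidase, read 168 and 1029, 6.14-fold higher. The Ring1B control array read 566 for Pecam1, 1188 for Pla2g1b and 668 for Pipox. Against it their log2 differences were 0.68, 0.29 and 0.62, all under 2-fold, while Ntn1 still differed by 1.63. Pdgfc differed by -0.08 there.

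Some higher genes were under the floor on the control array. Rab25, a GTPase of recycling endosomes, read 342 on the double KO, at least 9.34-fold higher, and Trpm1, a cation channel of melanocytes and retina, read 317, at least 8.66-fold higher. Aoah, which deacylates bacterial lipopolysaccharide, read 248, at least 6.79-fold higher. The aspartic protease genes Napsa and Pga5 read 201 and 179, at least 5.49-fold and at least 4.9-fold higher, with -0.14 on the next probe set of Napsa. Trpm1 was under the floor on the Ring1B control as well, and Rab25 was dim there at 81.7, whereas Trh, the gene with the largest fold among the higher ones, read 74.8 and 1424 within the pair and 1022 on the Ring1B control array. For Trh the paired control array was thus the dimmer of the 2 wild-type arrays.

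**Figure D5:**
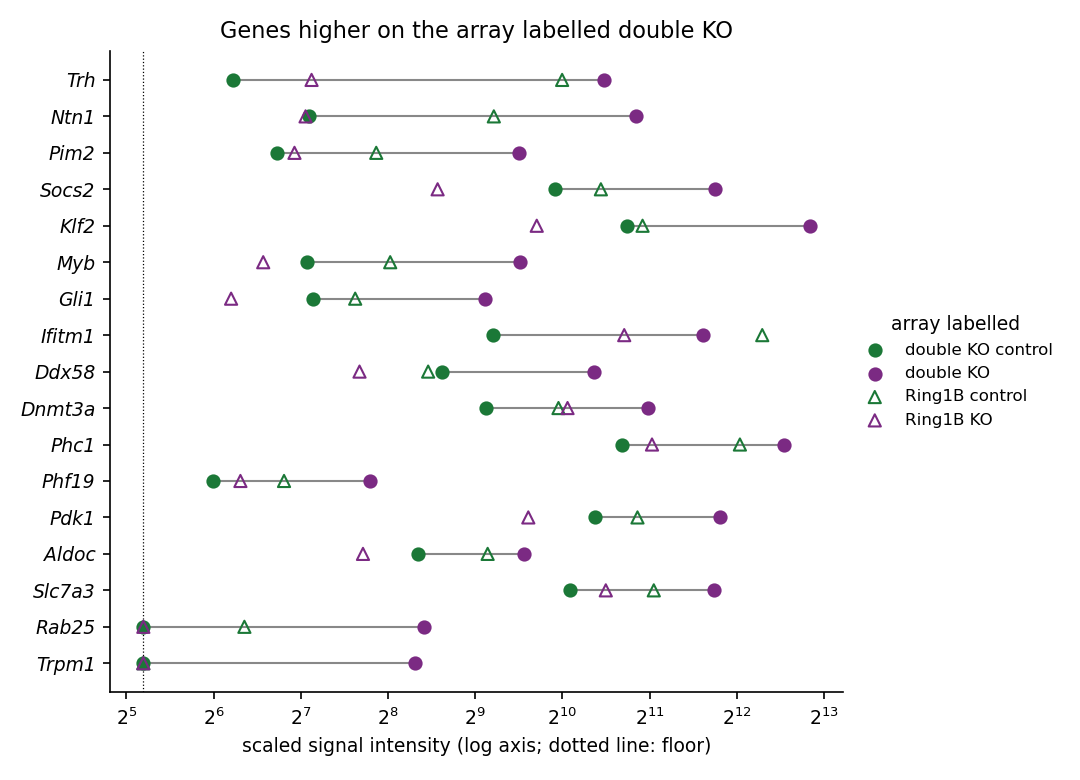
Scaled signals of higher genes on the 4 arrays (log axis), filled circles for the double KO pair joined by a line and open triangles for the Ring1B pair, values under the floor drawn at the dotted line. For Trh and Ifitm1 the Ring1B control array lies near or above the double KO, while for Ntn1, Pim2, Myb and Trpm1 it lies below.

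Zinc finger genes named Zfp, many of them repressors with a KRAB domain, leaned to higher signals within the scaled pair. Of 297 above the floor, 16 (5.39%) were higher and 9 (3.03%) lower, against 3.02% and 9.99% over all genes, and 186 were brighter on the double KO with a median of 0.19. This lean depended on the scaling and the reference: without scaling 10 were higher and 14 lower, with a median of 0.07, and against the Ring1B control array 21 were higher and 41 lower, with a median of -0.08. Zfp729b read 191 and 524, 2.74-fold higher, and its chromosome 13 neighbours Zfp729a and Zfp493 were higher too, at 132 and 267 for Zfp729a (0.56 on its next probe set) and 152 and 389 for Zfp493. These 3 genes are close relatives, so probes may read more than 1 of them. Zfp532 read 521 and 1395, 2.68-fold higher. Zfp711, an X-linked activator, was lower at 123 and 37.7, 3.25-fold.

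Most genes of the core machinery of the cell differed little. Over 20 groups chosen with their values known, which cover ribosomes, translation initiation, respiratory complexes I, III and IV, ATP synthase, proteasome, splicing, replication, mitosis, repair, nucleotide and sterol synthesis and others, 575 genes were above the floor, 2 were higher, 5 were lower and 540 (93.9%) lay within 1.5-fold, with a median of 0.12. The higher ones were Polr3gl, an RNA polymerase III subunit, at 81.7 and 206, and the immunoproteasome gene Psmb10 at 233 and 475. The lower ones were the immunoproteasome gene Psmb9 at 298 and 94.3, the cytochrome oxidase subunit genes Cox7a1 at 472 and 179.5 and Cox8c at 124 and 55.2, and the initiation factor genes Eif4e3 at 400.0 and 140.3 and Eif5a2 at 194 and 70.9. The log2 differences of Polr3gl and Eif4e3 changed sign against the Ring1B control array, to -0.93 and 0.04. Most genes of these groups were bright: 516 of the 575 exceeded 16 times the floor, a class in which 2.59% of all genes were higher and 4.87% lower. Within these groups DNA replication genes leaned to one side, 32 of 34 being brighter on the double KO with a median of 0.34, or 0.21 without scaling. Mcm3, of the replicative helicase, read 2305 and 3597, and Pcna, the sliding clamp, read 10666 and 15283. Ribosome biogenesis genes had a median of 0.27, with Gnl3, nucleostemin, at 3462 and 5223.

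Promoters of the called genes differed in CpG content from the rest. The ratio of observed to expected CpG was computed over RefSeq promoter windows of 300 bases for 9987 genes. It had a median of 0.60 among 297 higher genes, 0.71 among 962 lower genes and 0.78 among 8728 genes under 2-fold. A ratio of at least 0.6, typical of CpG islands, was found for 50.5% of higher, 64.8% of lower and 74.3% of the other promoters. The Mmp3 and Mmp13 promoters printed above had ratios of 0.08 and 0.07, and those of Ddx4 and Stk31 had 0.98 and 0.91.

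Lower genes also lay next to each other in places. Along the chromosomes, with 12315 genes placed, 24 runs of at least 3 neighbouring tested genes were all lower, 79 genes in all. In 4 runs all were higher, 13 genes in all. Over all genes 9.99% were lower and 3.02% higher, so some runs arise from a random order alone. The number expected that way was not computed, so the counts do not show that lower genes cluster. Beside the Hoxa and Hoxd runs and the Mmp13 and S100a6 neighbourhoods, chromosome 13 held a run of 5. Its genes were Bhmt, Bhmt2, Dmgdh, Arsb (-0.44 on its next probe set) and Lhfpl2. Dmgdh acts in the same betaine pathway as Bhmt, and Bhmt2 is a relative of Bhmt. Bhmt2 and Dmgdh had control signals of 144 and 122 against values under the floor on the double KO. A run of 4 on chromosome 3 held the ephrin ligand genes Efna3 and Efna4 with Adam15 and Zbtb7b. A run of 4 on chromosome 13 held Neurog1, Cxcl14, Slc25a48 and Tgfbi. Over the autosomes and X, medians by chromosome ran from -0.13 on chromosome 4 to 0.04 on chromosome 3. Chromosome Y, with 4 genes, had a median of 0.05, and 20 of 391 X-linked genes (5.12%) were higher.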

How the data were processed

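The series holds 4 Affymetrix mouse expression arrays of ES cell RNA, 1 array in each of 4 groups. The deposited values are linear signal intensities per probe set; per the submitters' processing notes they were made with MAS5, whose version and settings are not given in the sources used here. The authors' values of the Ring1B pair had a trimmed mean of 500.0 and those of the double KO pair 160.0 and 147.0, so all arrays were scaled to a common 2%-trimmed mean of 277. The platform annotation gave 1 gene symbol to 34945 of 45101 probe sets, several to 932, and 64 were array controls. Where a gene had several probe sets, the one brightest on average over the 4 arrays (log2) was used. Signals under the 40th percentile (36.6) were set to it. With 1 array a group there is no test and no error estimate, and precision is limited by the number of arrays. Genes were counted at 2-fold.

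Named genes are the targets, the 20 largest measured differences and 10 largest bounds in each direction, and up to 3 members of a list in each direction, plus chains of a pathway and some genes picked after their values were seen. The comparison and the gene lists were chosen with earlier results of these data known. Promoters are the first RefSeq entry of a symbol, found for 9987 of the 12353 genes. Alternatives were quantile normalization, no scaling, 2 other floors, the mean over probe sets, leaving out probe sets that can read several transcripts, and the Ring1B control array as reference. The counting was checked on simulated data. Python 3.11.15, numpy 2.4.6, pandas 2.3.3 and matplotlib 3.10.9 were used.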

Additional observations from a re-analysis of the deposited data

Results flagged for a closer look

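Probe sets that the platform annotation ties to no single gene were outside the comparisons above. Of 3150 such probe sets above the floor, 87 (2.76%) had double KO signals at least 2-fold above those of the control, and 156 (4.95%) were at least 2-fold lower.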

How the results depend on the processing

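The counts of 373 higher and 1234 lower genes stayed within 1.5 times under quantile normalization, no scaling, the mean over probe sets and probe sets of single transcripts. A floor at the 20th percentile gave 928 and 2172, and a floor at the 60th percentile 218 and 530, since these test more and fewer dim genes. With the Ring1B control array as reference 960 genes were higher. Without scaling the median of all genes was -0.17 in place of -0.05. The log2 differences of 210 named genes and the medians of 55 lists stayed within 1.5-fold under quantile normalization and without scaling. Against the Ring1B control array 63 named genes did so, 96 moved by more and 44 of those at least 2-fold apart had the opposite sign. Named genes that moved by more numbered 43 at the 60th percentile floor, 55 with the mean over probe sets, 11 at the 20th percentile floor and 4 without probe sets that can read several transcripts. Of those reversed against the Ring1B control array, genes lower within the pair had log2 differences of 2.11 for Mmp13, 1.96 for Mmp10, 1.60 for Mmp3, 1.59 for Tapbp, 1.48 for Krt7, 1.28 for Krt18, 1.19 for Fos, 1.06 for Plin2, 1.04 for Stk31, 0.94 for Bcor, 0.90 for Mmp9, 0.89 for Syce1, 0.88 for Cldn3, 0.81 for Slc25a20, 0.77 for H2-K1, 0.72 for Myl7, 0.68 for Acaa2, 0.56 for Tap1, 0.55 for Stat5a, 0.45 for Krt19, 0.39 for Ccl2, 0.39 for Hs6st1, 0.28 for Fbp1, 0.26 for Itgb5, 0.24 for Mov10l1, 0.22 for Bmi1, 0.22 for Twist1, 0.20 for Zbtb7b, 0.17 for Krt8, 0.14 for Bhmt, 0.12 for E2f6, 0.12 for Zfp36, 0.11 for Cbx2, 0.10 for Gata3, 0.04 for Eif4e3 and 0.03 for Birc3. Genes higher within the pair had -0.68 for Ifitm1, -0.69 for Ifitm3, -0.29 for Itgb7, -0.75 for Lama1, -1.72 for Lifr, -1.0 for Nectin3, -0.08 for Pdgfc and -0.93 for Polr3gl. List medians under each alternative were taken over the members above the floor on 1 or both of the arrays then compared. Against the Ring1B control array they turned to 0.54 for matrix metalloproteinases, 0.13 for desmosomes, 0.05 for antigen presentation, 0.39 for NF-kB targets, 0.03 for lipid droplets and 0.10 for trophoblast markers. Medians of other lists also changed sign there, from -0.50 to 0.39 for tight and adherens junctions, -0.18 to 0.16 for keratins, -0.14 to 0.88 for interferon response genes, -0.28 to 0.13 for fatty acid oxidation, -0.07 to 0.22 for PRC1 subunits, -0.16 to 0.12 for solute carriers and -0.18 to 0.08 for interleukins and receptors. The 60th percentile floor moved medians from -1.10 to -0.25 for sulfotransferases and from -0.18 to -1.67 for keratins, and turned those of interferon response genes to 0.19 and of platelet-derived and vascular growth factors to 0.03. The mean over probe sets moved them from -1.22 to -0.55 for antigen presentation and from -1.66 to -0.97 for fibroblast markers. Endoderm markers moved from -1.11 to -1.80 at the 20th percentile floor. Gluconeogenesis genes moved from -0.30 to -1.43 without probe sets that can read several transcripts. Sdc4 turned to 0.61 without probe sets that can read several transcripts. The cause was not tested. No paired analysis was possible because each group is 1 array. Genes near the floor have only bounds, and no array has a replicate.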

Other observations

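Of 13 retinoid genes, which include the carriers Rbp4 and Crabp1, 3 (23.1%) were lower and 0 higher, against 9.99% and 3.02% over all genes. The receptors Rara and Rarg read 93.3 and 177 for Rara and 282 and 439 for Rarg, brighter on the array labelled double KO and under 2-fold. Of 19 Notch pathway genes, 4 (21.1%) were lower and 1 (5.26%) was higher. Dlk1, an atypical ligand, read 547 and 46.2, 11.8-fold lower, and Jag2, a canonical ligand, read 229 and 107, 2.14-fold lower. Against the Ring1B control array, which read 72.0, Dlk1 differed by -0.64 on the log2 scale. Of 15 genes of the epithelial to mesenchymal transition, 7 (46.7%) were lower and 0 higher. Twist1, a transcription factor of mesenchyme, read 122 and 43.6, 2.79-fold lower, and Prrx1, another, read 228 and 63.7, 3.57-fold lower, with -0.25 on its next probe set. Of 17 genes of the platelet-derived and vascular growth factor families, 3 (17.6%) were higher and 4 (23.5%) lower. Met, the receptor of hepatocyte growth factor, read 169 and 59.8, 2.83-fold lower.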
